A study of Erophylla sezekorni and Pteronotus quadridens with 48 samples.

Results

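LINE-1 open reading frames were examined in the assembled transcripts of 2 bats, *Erophylla sezekorni* and *Pteronotus quadridens*. Members were chosen by the SwissProt protein that a translated transcript matched best (BLASTX), and a transcript was selected on the protein names LORF2, LIN1 or LORF1 at any E-value listed. An E-value is the number of equally good matches expected by chance, and none listed in either species was above 1e-05. By this rule, 26507 of the 1064426 transcripts of *Erophylla* and 32591 of the 1156187 transcripts of *Pteronotus* were LINE-1 transcripts. The RNA came from embryonic forelimb, heart, plagiopatagium (the wing membrane beside the trunk) and uropatagium (the tail membrane) at St 14 and St 16. There were 3 libraries for each species, tissue and stage, 48 in all, and the kit used kept the strand of the RNA. By the paper's account each individual gave all of these tissues, so libraries of different tissues share animals. Values per library were not used here, so no LINE-1 value below belongs to a tissue or a stage, and depth per library was not analysed here. Each species had 1 assembly and therefore no replicates. The 95% Wilson intervals given for shares cover counting error only, because transcripts of 1 assembly are not independent.

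LINE-1 elements are retrotransposons, which spread by copying their RNA into DNA at a new place in the genome. An intact element carries a pair of reading frames. ORF1 encodes a protein that binds the element's RNA, and ORF2 encodes a larger protein with an endonuclease, which nicks the target DNA, and a reverse transcriptase, which makes the new copy. Copying starts at the tail of the RNA and often stops early, so mammalian genomes hold many copies that lack the front of the element, and old copies gather mutations that break the reading frames. In SwissProt, LORF1 and LORF2 name the ORF1 and ORF2 proteins of human and mouse, and LIN1 is an ORF2-type protein of the slow loris.

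The 3 names had more transcripts than any other SwissProt name in both species. LORF2, the endonuclease and reverse transcriptase, was carried by 20901 transcripts in 18079 assembled genes of *Erophylla* and by 25529 transcripts in 21992 assembled genes of *Pteronotus*. An assembled gene is a group of overlapping assembled sequences and need not be 1 gene of the animal. LIN1 was carried by 3429 transcripts in 3025 assembled genes and by 4133 in 3692, respectively. LORF1, the RNA-binding protein, was carried by 2177 transcripts in 1650 assembled genes and by 2929 in 2234. The next name in order, the retroviral polyprotein POL, had 857 transcripts in *Erophylla* and 703 in *Pteronotus*.

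Among transcripts with a SwissProt name, LINE-1 names made up 10.5% in *Erophylla* (interval 10.4% to 10.6%) and 12.9% in *Pteronotus* (12.8% to 13.0%). The split among the names was close in both bats, with LORF2 at 78.9% and 78.3% of LINE-1 transcripts, LIN1 at 12.9% and 12.7%, and LORF1 at 8.21% and 8.99%. Human LORF2 was the protein matched by 14882 and 18152 transcripts, and mouse LORF2 by 6019 and 7377. LINE-1 assembled genes were mostly single sequences. A single transcript made up 84.1% of them in *Erophylla* and 83.6% in *Pteronotus*, against 53.5% and 52.6% of the assembled genes with other names. The largest LINE-1 assembled gene held 23 LINE-1 transcripts in *Erophylla* and 21 in *Pteronotus*.

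Most LINE-1 matches were weaker than those of other names. Among the listed matches, which end at 1e-05, the median E-value was 1.73e-12 in *Erophylla* and 1.91e-12 in *Pteronotus*, while the medians for other names were 4.93e-84 and 1.63e-73. At a limit of 1e-20, 5266 LINE-1 transcripts of *Erophylla* (19.9%) and 6153 of *Pteronotus* (18.9%) were kept, against 82.7% and 80.7% of transcripts with other names. The limit lay inside a continuous range, since the nearest LINE-1 E-values on its sides were 1e-20 and 1.01e-20 in each species. At 1e-50, 133 LINE-1 transcripts were kept in *Erophylla* and 136 in *Pteronotus*, and LORF1 had 0 in both.

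LINE-1 transcripts ran in both directions along the proteins. A match is called forward when the transcript, read as assembled, encodes the protein, and reverse when its complement does. In *Erophylla* 12468 of the 26507 LINE-1 transcripts aligned forward, or 47.0% (interval 46.4% to 47.6%), and in *Pteronotus* 15417 of 32591, or 47.3% (46.8% to 47.8%). Transcripts with other SwissProt names aligned forward in 93.0% and 92.8% of cases. LINE-1 names therefore held 46.9% of all reverse matches in *Erophylla* and 51.9% in *Pteronotus*, but 5.61% and 7.03% of forward ones. Orientation came from the same match that chose the members, so these shares are a description with no test.

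By name, LORF1 had the highest forward share, 51.9% in *Erophylla* and 54.0% in *Pteronotus*. LIN1 followed with 47.8% and 47.9%, and LORF2 had 46.4% in both. These shares are also a description with no test. The order did not hold for strong matches in *Erophylla*, where at 1e-20 or lower LIN1 was highest with 58.3% (interval 54.6% to 61.9%) and LORF1 lowest with 50.8% (43.8% to 57.7%). In *Pteronotus* LORF1 was still highest at that limit, with 58.6% (51.8% to 65.0%). Within a single match, stretches in both directions were rare, with 55 LINE-1 transcripts in *Erophylla* (0.207%) and 72 in *Pteronotus* (0.221%), against 0.0487% and 0.0105% of transcripts with other names.

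The low forward share of LINE-1 transcripts was not limited to short matches. With 50 or fewer aligned residues, 43.7% of LINE-1 transcripts in *Erophylla* and 45.4% in *Pteronotus* aligned forward, and with 201 to 300 residues the shares were 49.95% and 46.2%. Above 300 residues they reached 54.1% (interval 49.3% to 58.8%) and 52.8% (48.4% to 57.2%). Other names had 76.4% and 78.4% in the shortest class and 99.2% in the longest class of either bat. The difference between LINE-1 and other names was thus larger in the longest class than in the shortest, as the plot of forward share by aligned length shows.

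**Figure D1:**
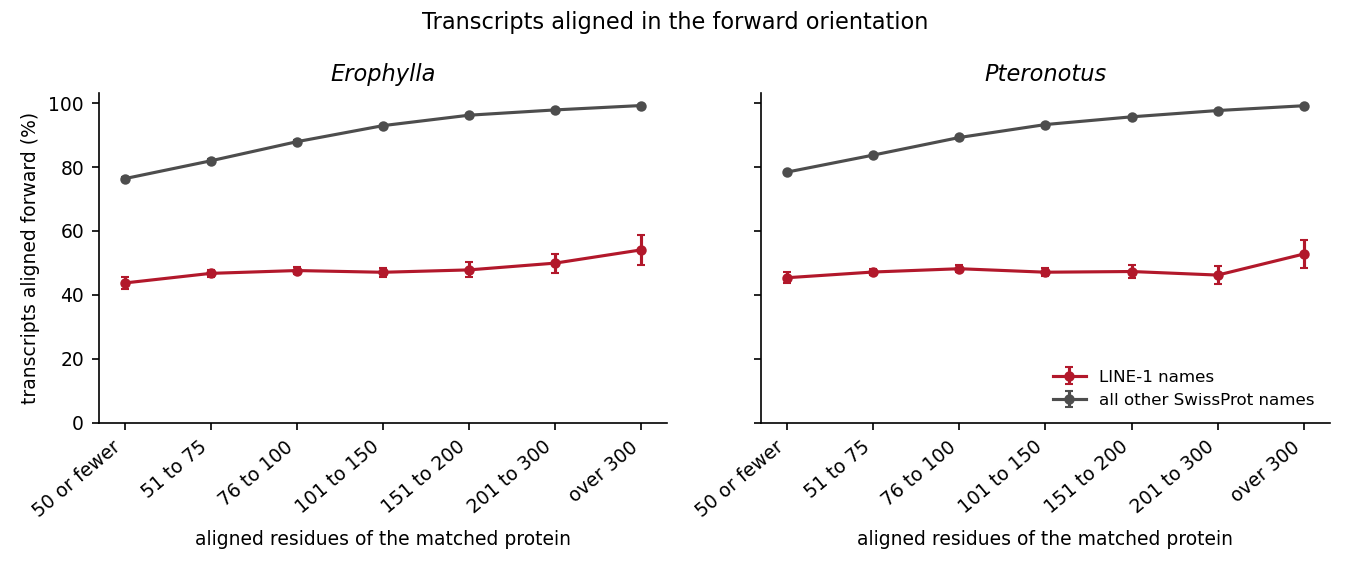
Share of transcripts aligned forward (%), by aligned residues of the matched protein, for LINE-1 names (red) and all other SwissProt names (grey) in each species, with bars for 95% Wilson intervals. LINE-1 shares stay between 43.7% and 54.1%, while shares for other names rise to 99.2% in both species.

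At comparable identity the LINE-1 share was also the lower one. Among matches with an identity over 40% and up to 50%, 45.9% of LINE-1 transcripts in *Erophylla* and 47.0% in *Pteronotus* aligned forward, against 76.1% and 75.1% of transcripts with other names. Stronger LINE-1 matches were more often forward. When the E-value had to be 1e-20 or lower, the share was 53.5% (interval 52.1% to 54.8%) in *Erophylla* and 52.9% (51.6% to 54.1%) in *Pteronotus*. At 1e-50 or lower it was 65.4% (57.0% to 73.0%) and 66.2% (57.9% to 73.6%), where other names stood at 99.2% and 99.0%. By name at that limit, *Erophylla* had 88% of 25 LIN1 transcripts forward and 60.2% of 108 LORF2 transcripts. *Pteronotus* had 58.3% of 12 and 66.9% of 124.

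LINE-1 transcripts covered short pieces of the proteins. The aligned length, counted as residues of the protein covered by any stretch of the match, had a median of 81 in *Erophylla* (quartiles 64 and 114) and 82 in *Pteronotus* (65 and 114). Of transcripts with other names the medians were 211 and 181. LORF2 and LIN1 had similar medians, 82 and 83 in *Erophylla* and 83 for both in *Pteronotus*, and LORF1, a shorter protein, had 74 and 73. Aligned residues ranged from 18 to 840 and from 19 to 791.

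Few matches came near the whole of a protein. The span of a protein was taken from the first to the last residue that any transcript of the species reached, which was 1275 residues for human LORF2 in both species. At 90% of that span or more there were 0 transcripts for human LORF2, mouse LORF2, LIN1 and mouse LORF1. For human LORF1 there was 1 in each species, but that match itself reached the first residue of the span and so set its own measure. In *Erophylla* this match, the longest for LORF1, was TRINITY_DN380944_c4_g4_i1, which aligned forward over 279 residues at 30.4% identity. In *Pteronotus* it was TRINITY_DN417829_c2_g1_i1, which aligned in reverse over 308 residues at 27.6% identity in its first stretch.

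The LINE-1 transcripts had diverged from the proteins they matched. Identity, taken from the highest scoring stretch, had a median of 49.3% in *Erophylla* (quartiles 42.0% and 57.1%) and 49.1% in *Pteronotus* (41.8% and 56.6%). The medians for other names were 89.2% and 89.5%. An identity of 80% or more was reached by 150 LINE-1 transcripts in *Erophylla* and 205 in *Pteronotus*, with median aligned lengths of 55.5 and 55 residues. The closest LINE-1 matches were therefore short ones. Identity is measured here against proteins of human, mouse and slow loris and not against an element of a bat.

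**Figure D2:**
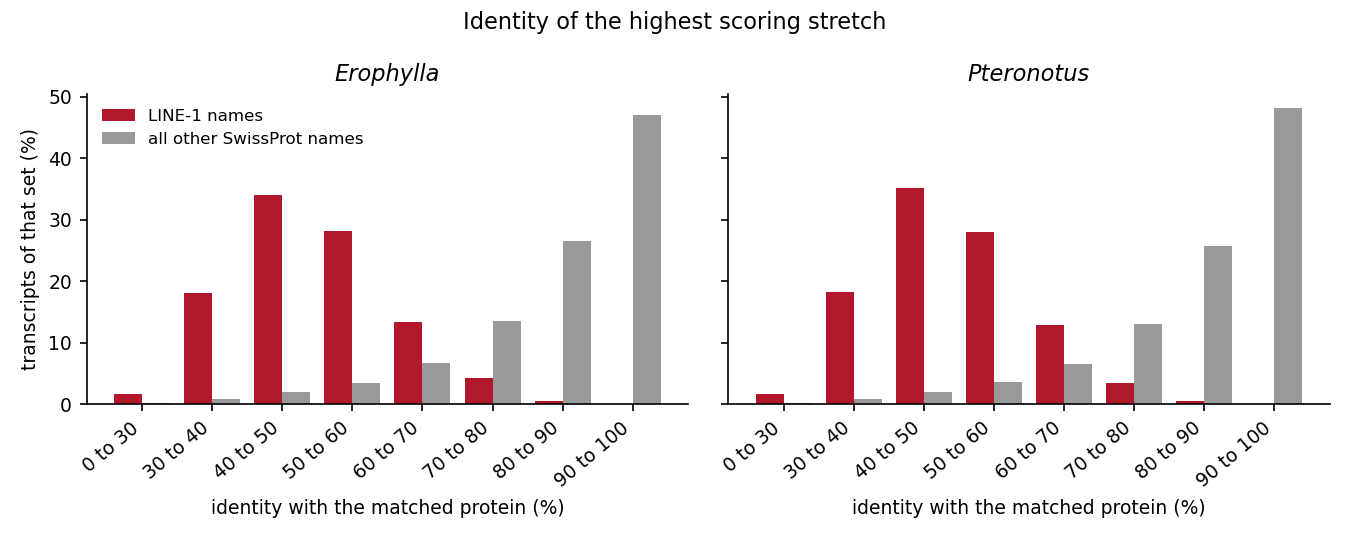
Percent of transcripts in each range of identity with the matched protein (%), for LINE-1 names (red) and all other SwissProt names (grey) in each species. LINE-1 names are most frequent over 40% and up to 50% identity, at 34.0% of transcripts in *Erophylla* and 35.2% in *Pteronotus*, and other names are most frequent over 90%.

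Coverage was uneven along the proteins. In both species the part of human LORF2 most often matched was residues 1101 to 1150, near its end, where a residue lay under a mean of 3841 transcripts in *Erophylla* and 4466 in *Pteronotus*. Mouse LORF2 was most often matched at residues 1201 to 1250. LIN1 differed, with its highest coverage at residues 201 to 250 in both species, by a mean of 583 and 710 transcripts. A transcript counts only for the protein it matched best. Coverage of LIN1 or of either LORF2 therefore does not show where transcripts lay along ORF2 as a whole. Human LORF1 was matched most at residues 251 to 300.

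The forward share of LINE-1 transcripts also changed along the proteins. Over bins with a mean of at least 100 transcripts, its highest value on human LORF2 was at residues 351 to 400, with 60.4% in *Erophylla* and 59.9% in *Pteronotus*. On LIN1 the highest value was 63.9% at residues 351 to 400 in *Erophylla* and 54.8% at residues 301 to 350 in *Pteronotus*. Mouse LORF2 had 59.1% and 56.7% at residues 351 to 400, but its thinly covered residues 301 to 350, with means of 53.3 and 75.3 transcripts, had 61.6% and 62.9%. The lowest values under the same minimum were 36.9% on mouse LORF2 at residues 151 to 200 and 39.3% on LIN1 at residues 101 to 150 in *Erophylla*. In *Pteronotus* they were 40.5% on LIN1 at residues 951 to 1000 and 40.9% on mouse LORF2 at residues 451 to 500. Below that minimum, residues 51 to 100 of LIN1, with means of 57.6 and 64.4 transcripts, had 31.8% and 33.3%. On human LORF2 the lowest was 44.6% at residues 651 to 700 in *Erophylla* and 44.2% at residues 1101 to 1150 in *Pteronotus*. At residues 1101 to 1150, the most covered bin of human LORF2, the share in *Erophylla* was 45.0%. The plot of coverage shows the forward line above the reverse line near residue 400 of human LORF2 and below it at residues 1101 to 1150.

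**Figure D3:**
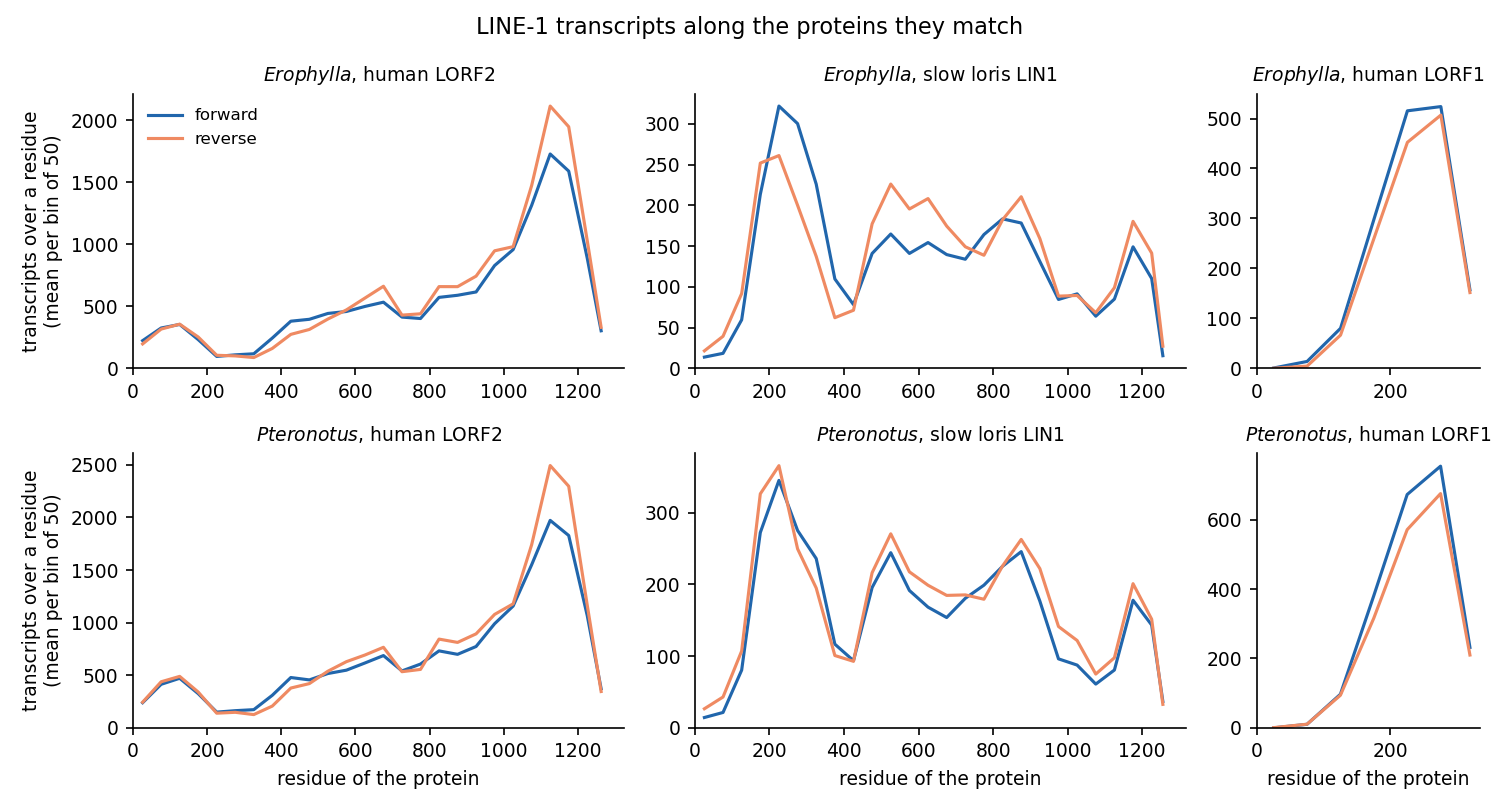
Mean number of LINE-1 transcripts over a residue, in bins of 50 residues along human LORF2, slow loris LIN1 and human LORF1, for forward (blue) and reverse (orange) matches in each species. Human LORF2 is highest at residues 1101 to 1150, LIN1 at 201 to 250 and human LORF1 at 251 to 300.

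Longer LINE-1 matches were broken across reading frames. A match of more than 1 stretch was found for 40.3% of LINE-1 transcripts in *Erophylla* and 40.9% in *Pteronotus*. Of transcripts with other names, 37.1% and 32.1% had such a match. Among the LINE-1 matches with more than 1 stretch, 99.8% in both species had stretches in more than 1 frame. For other names, 75.8% and 73.7% of matches with more than 1 stretch did. Among LINE-1 transcripts with 200 or more aligned residues, 77.1% and 80.5% had stretches in more than 1 frame, against 41.4% and 36.3% for other names. A change of frame means that no single reading of the transcript gives the whole aligned protein.

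The longest LORF2 and LIN1 matches were made up of several stretches, while the longest LORF1 match of *Erophylla* was a single one. TRINITY_DN375524_c7_g1_i1 of *Erophylla*, the longest LIN1 match, aligned forward over 840 residues in 7 stretches and had 0 predicted coding regions. TRINITY_DN383316_c4_g2_i1, the longest LORF2 match of that species, covered 706 residues in 9 stretches and also had 0. In *Pteronotus* the longest LORF2 match, TRINITY_DN403460_c7_g2_i1, covered 791 residues in 6 stretches, and its coding region had 116 residues.

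Reverse LORF2 matches were nearly as long. TRINITY_DN376095_c11_g1_i1 of *Erophylla* aligned in reverse over 699 residues in 7 stretches. TRINITY_DN397107_c8_g1_i1 of *Pteronotus* aligned in reverse over 751 residues in 5 stretches. The longest LIN1 match of *Pteronotus*, TRINITY_DN395524_c7_g1_i2, aligned forward over 650 residues in 6 stretches.

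Coding regions were rarely predicted on LINE-1 transcripts. At least 1 was listed for 1689 LINE-1 transcripts of *Erophylla*, which was 6.37% (interval 6.08% to 6.67%). In *Pteronotus* the number was 1966, which was 6.03% (5.78% to 6.30%). Of transcripts with other names, 73.3% and 70.04% had one. LINE-1 transcripts matched at an E-value of 1e-20 or lower had one in 10.5% and 9.62% of cases. With 101 to 150 aligned residues the LINE-1 shares were 10.4% and 9.83%, against 74.0% and 75.1%. Above 300 residues they were 21.3% and 14.7%, against 98.4% and 98.1%, so the difference was present at each aligned length compared.

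**Figure D4:**
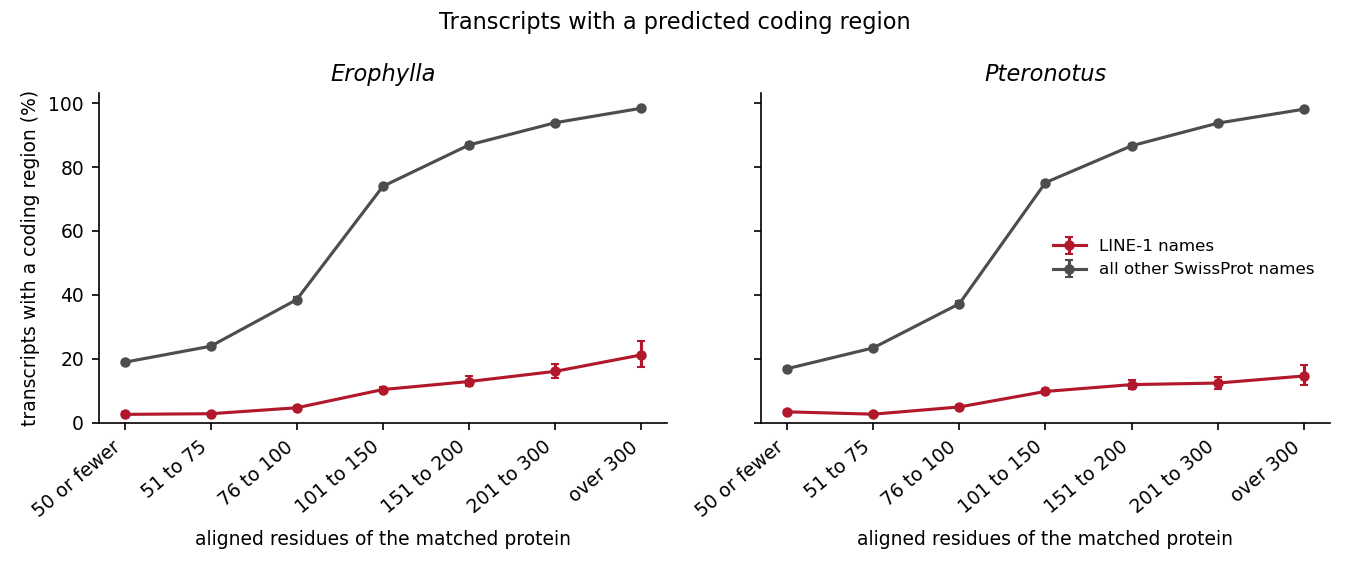
Share of transcripts with a predicted coding region (%), by aligned residues of the matched protein, for LINE-1 names (red) and all other SwissProt names (grey) in each species, with bars for 95% Wilson intervals. Above 300 residues LINE-1 shares reach 21.3% in *Erophylla* and 14.7% in *Pteronotus*, and shares for other names 98.4% and 98.1%.

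Most of the coding regions on LINE-1 transcripts had no protein match listed. Of 2016 such regions in *Erophylla*, 669 matched a LINE-1 protein when compared as protein (BLASTP) and 1340 had no SwissProt match listed. Of 2211 in *Pteronotus*, the numbers were 796 and 1400. Regions with a LINE-1 match lay on the strand of the transcript's own match in 99.7% and 99.5% of cases, and regions without one in 52.6% and 53.4%. For the regions with a LINE-1 match this follows from the method, since both comparisons set the same bases against the same proteins. Whether the regions without one overlapped the transcript's own match was not analysed here.

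Counting every transcript, 765 coding regions of *Erophylla* and 857 of *Pteronotus* matched a LINE-1 protein. LORF2 was the name of 528 and 612 of them, LIN1 of 132 and 130, and LORF1 of 105 and 115. Of these LINE-1 coding regions, 54.2% (interval 50.7% to 57.7%) and 49.6% (46.3% to 52.9%) were on the forward strand, against 98.3% and 98.1% of coding regions with another protein match. Since 669 and 796 of these regions lay on the LINE-1 transcripts themselves, this split restates that of the matches and is no separate observation.

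LINE-1 coding regions were short, with medians of 114 and 111 residues where the shortest listed region of any kind had 99. At 200 residues or more there were 14 in *Erophylla* and 11 in *Pteronotus*. The longest, 540 residues, was on TRINITY_DN389496_c80_g2_i3 of *Erophylla*. It lay on the reverse strand from base 2033 to base 414 and matched human LORF2 from residue 5 to residue 533 at 63.1% identity, with a pair of endonuclease domain hits (Exo_endo_phos and Exo_endo_phos_2). The whole transcript matched residues 5 to 678 in a single stretch at 65.0% identity. In *Pteronotus* the longest, of 289 residues on TRINITY_DN393696_c2_g1_i2, matched human LORF2 over 39 residues, and that transcript had no SwissProt match of its own. Other coding regions of *Pteronotus*, chosen here after their values were seen, were shorter but matched over more residues. The region of 213 residues on TRINITY_DN420794_c13_g1_i1 matched human LORF1 over 204 residues at 32.9% identity and held Transposase_22, the domain of the ORF1 protein. The region of 224 residues on TRINITY_DN398294_c10_g2_i1 matched human LORF2 over 203 residues at 71.4% identity and held RVT_1, the reverse transcriptase domain.

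Protein domains of LINE-1 were found on few transcripts. A domain of the ORF1 or ORF2 protein was listed for 172 LINE-1 transcripts of *Erophylla*, or 0.649%, and for 178 of *Pteronotus*, or 0.546%. Transposase_22 was found in 76 and 91 coding regions of LINE-1 transcripts, and Tnp_22_dsRBD, also of ORF1, in 45 and 47. RVT_1 was found in 56 and 61. Transposase_22 was thus more frequent than the reverse transcriptase domain, while LORF1 had the fewest transcripts of the 3 names. The reverse transcriptase is only a part of the ORF2 protein, whereas LORF2 and LIN1 transcripts were counted over all of it. The counts of domains and of transcripts are therefore not directly comparable. The endonuclease domain Exo_endo_phos was found in 6 and 2 coding regions.

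No LINE-1 transcript carried coding regions for both proteins, with 0 in each species. A LORF1 coding region lay on a transcript named LORF2 or LIN1 in 1 case in *Erophylla* and 2 in *Pteronotus*. Within assembled genes, LORF1 stood beside LORF2 or LIN1 in 7 and 13 cases. These counts say little about whether both reading frames stood on 1 transcript, because a transcript had 1 SwissProt name and 2.51% and 2.43% of LINE-1 transcripts had a LINE-1 coding region.

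Some LINE-1 transcripts belonged to assembled genes with another name. There were 287 such genes in *Erophylla*, 1.28% of LINE-1 assembled genes, and 270 in *Pteronotus*, 0.980%. Grouped by assembly component, a wider unit of the assembly, the shares were 5.08% and 4.07%. LITD1, the name of a host gene that arose from a LINE-1 ORF1, was the other name found most often, in 13 and 27 of these genes. In *Erophylla* CFA61 and POL followed with 3 each and CAGE1 and MCP with 2 each, and in *Pteronotus* POL, SC5A1 and ZN850 had 2 each. Every further name stood in 1 gene.

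LINE-1 transcripts kept their mixed orientation inside these genes. In the 243 genes of *Erophylla* whose other names all aligned forward, 45.7% (interval 41.0% to 50.6%) of 411 LINE-1 transcripts aligned forward. In the 215 such genes of *Pteronotus*, 48.1% (43.0% to 53.4%) of 351 did. Their values lay near those of all LINE-1 transcripts, at 47.0% and 47.3%. Genes whose other name was LITD1 or POL were not set apart from the rest.

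LINE-1 coding regions were also found on transcripts that carried another name or none. In *Erophylla* 96 LINE-1 coding regions lay outside the LINE-1 transcripts, 55 of them on transcripts with another SwissProt name. In *Pteronotus* the numbers were 61 and 26. The names found most often there were CPT1C and FSD1L with 8 each and UB2Q2 with 5 in *Erophylla*, and NAA20, PTPRC and RIMS2 with 4 each in *Pteronotus*.

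Other retroelement names were far less frequent than LINE-1 names. The names RTJK, RTBS, YTX2, PO11, PO21, PO22, PO23, PO24 and RTXE, of other LINE-type reverse transcriptases, were at 0 in both species. POL2, placed on the same list, is a retrovirus-related Pol protein, and its 0 and 2 assembled genes are counted among the retroviral names. Retroviral name patterns, which also take some host genes such as DNA polymerases, gave 692 and 701 assembled genes, with 67.0% and 63.7% of transcripts forward. POL stood in 505 and 506 of these genes, GAG in 79 and 73, ENV in 39 and 24, and ERVV2 in 17 and 25. Their forward shares lay between those of LINE-1 and of other names, as with POL at 64.4% and 59.2%. Names derived from DNA transposons, looked up after the data were seen, were also mixed, with TIGD1 at 54.9% and 61.4% and SETMR at 57.4% and 51.2%. A low forward share was therefore not particular to LINE-1 names.

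LITD1 had a forward share close to that of the LINE-1 names, but lower identity. The name stood in 101 assembled genes of *Erophylla* and 146 of *Pteronotus*, with median aligned lengths of 75 and 79 residues. The name is only the best match, and whether these transcripts came from the host gene was not tested. Its median identities were 43.0% and 42.1%. The medians of LINE-1 names were 49.3% and 49.1%. Of LITD1 transcripts, 47.3% and 44.7% aligned forward, against 47.0% and 47.3% of LINE-1 transcripts. Its highest identity was 61.8% and 67.3%, against 95.2% and 100% for LINE-1 names. All LITD1 genes with a LINE-1 transcript, 13 and 27, had one named LORF1.

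Most of the listed host factors known to act on LINE-1 were found in each species. A name counts as found with any transcript that carried it, whatever its length or orientation. Of 13 names that silence LINE-1 DNA or take part in its repair, 12 were found in each species, with a median of 4 assembled genes per name. TIF1B, the corepressor KAP1, had 4 and 5, and TASOR, of the HUSH complex that silences LINE-1, had 11 and 17. Of 16 names that act on LINE-1 RNA or in the cytoplasm, 15 and 13 were found, among them MOV10, an RNA helicase that restricts LINE-1, with 8 and 9. PABP1, a poly(A)-binding protein, had 13 and 4, and PIWL1, a protein of the piRNA pathway, had 11 and 7.

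Several host factor names were at 0. SIRT6 and UPF1 were at 0 in both species, and these proteins are listed in SwissProt as SIR6, with 2 and 4 assembled genes, and RENT1, with 5 and 3, which were looked up after the zeros were seen. TREX1 and TEX19 had 1 assembled gene each in *Erophylla* and 0 in *Pteronotus*. The TEX19 match was 1 reverse transcript over 31 residues. Taken as a list, the silencing and repair factors aligned forward in 87.2% and 89.4% of transcripts, at median identities of 89.0% and 89.1%. The RNA and cytoplasmic factors did so in 87.0% and 92.3%, at 84.2% and 84.3%. Single names differed from these shares. MPP8, chosen here after its values were seen, was forward in 34.6% of 26 transcripts and 56.2% of 16, PIWL1 in 64% of 25 and 57.1% of 14, and TASOR in 80.5% of 41 and 66.7% of 45. RENT1 was forward in 51.4% of 37 transcripts in *Erophylla* and in 100% of 15 in *Pteronotus*.

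The reports also gave the best match of each transcript in nr, a larger protein collection that the choice of members did not use. Such a match was listed for 80.3% of LINE-1 transcripts in *Erophylla* and 80.5% in *Pteronotus*. They gathered on few proteins. A single ORF2 protein filed under synthetic constructs took 4943 and 5814 of them, or 23.2% and 22.2%. Proteins of even-toed ungulates took 34.8% and 35.7%, led by *Bos mutus* with 4388 and 5465 transcripts. Proteins of bats took 8.93% and 9.17% of LINE-1 matches, against 45.8% and 45.5% of matches of transcripts with other SwissProt names.

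Many LINE-1 transcripts had their best nr match in a protein filed under bacteria. This was so for 2979 LINE-1 transcripts of *Erophylla*, which was 14.0% (interval 13.5% to 14.5%) of those with an nr match. In *Pteronotus* it was so for 3716, which was 14.2% (13.7% to 14.6%). Among nr matches of all other transcripts the shares were 0.591% and 0.525%. Read the other way, LINE-1 transcripts made up 67.2% of the 4431 transcripts matched to bacteria in *Erophylla* and 74.5% of the 4990 in *Pteronotus*. With nr E-values of 1e-20 or lower, they made up 37.2% of 1015 and 52.9% of 856.

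The share of LINE-1 names varied among the bacterial groups drawn, which were 8 of 20 in the organism lists. Shares of the groups not drawn are not given here and may lie outside the range below. Of the 8 groups drawn, it was highest for fusobacteria, at 88.1% of 59 transcripts in *Erophylla* and 94.0% of 67 in *Pteronotus*. It was 85.4% and 86.4% for b-proteobacteria, the group with the most LINE-1 transcripts. The lowest shares among the 8 groups drawn were 48.1% for high GC Gram+ bacteria in *Erophylla* and 62.6% for chlamydias in *Pteronotus*. Of the LINE-1 transcripts matched to bacteria, 29.4% and 28.2% had a protein with endonuclease in its title and 52.1% and 53.7% one titled as a hypothetical protein. Titles of DUF1725, a domain at the end of the ORF2 protein, were matched by 306 and 379. A count of transcripts by nr organism in these assemblies therefore holds LINE-1 transcripts under bacteria, and whether bacterial RNA was present was not tested.

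**Figure D5:**
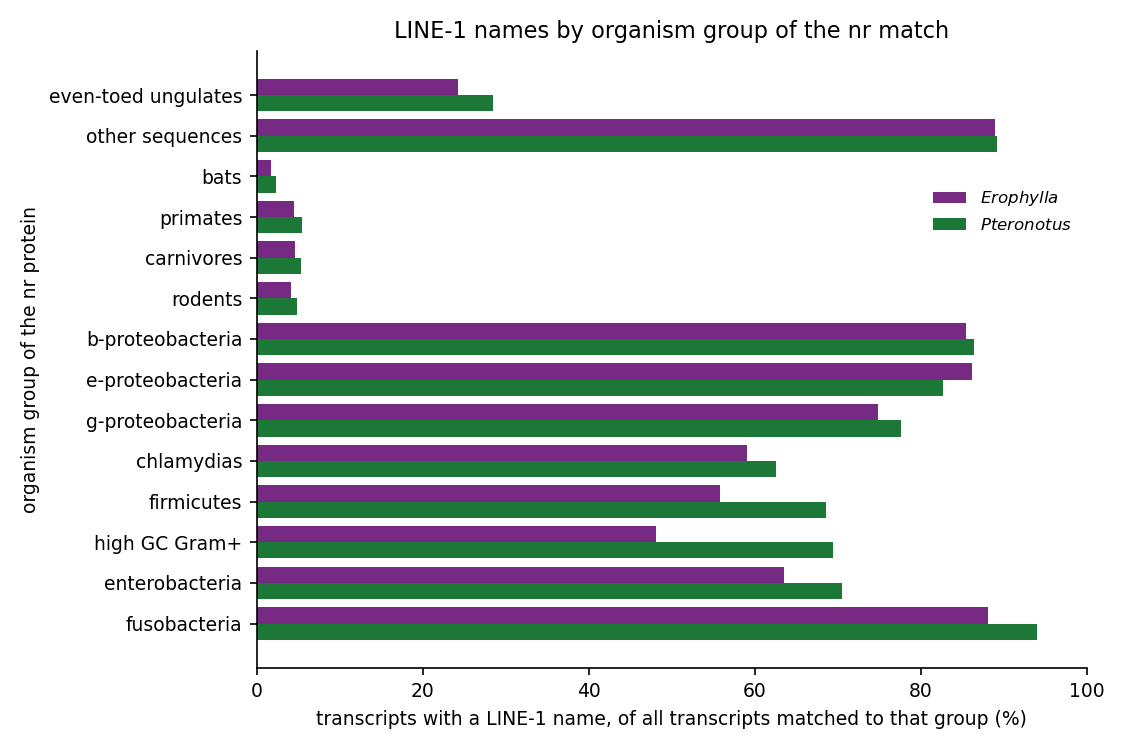
Percent of the transcripts matched to each organism group in nr that carry a LINE-1 name, for *Erophylla* (purple) and *Pteronotus* (green). The share is 1.74% and 2.25% for bats, 88.9% and 89.1% for other sequences (synthetic constructs), and between 48.1% and 94.0% in the bacterial groups drawn. These are 8 of 20 bacterial groups.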

How the data were processed

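RNA was extracted with an EZNA Total RNA kit from 48 samples, and stranded mRNA libraries were sequenced on an Illumina instrument. The authors deposited, for each species, a report of protein matches, coding regions and domains per assembled transcript, and a list of nr proteins with their organisms. The study names Galaxy with the Tuxedo protocol and a mapping step to *Miniopterus natalensis*. Transcript identifiers have the form that Trinity, an assembler, writes. The reports date the nr collection by month and year. Other versions and parameters of the assembly and the protein matches were not given in the sources used here. Deposited counts per library, in 48 columns, could not be paired with labels and were used in no step. Names were read without the species suffix. Orientation, E-value and identity came from the highest scoring stretch, and aligned length from the union of stretches. Parsing was tested on simulated matches. Single transcripts named by rule are the longest match per name and species, the longest reverse LORF2 match and the longest LINE-1 coding region. The other coding regions named for *Pteronotus* were chosen after their values were seen. Other names are the 10 most frequent beside LINE-1, and list genes at 0 or above 10 assembled genes, with MOV10, TIF1B and LITD1. The names MPP8, SIR6, RENT1, TIGD1 and SETMR were added after the data were seen. Members and lists were chosen with earlier results of these data known, and the bacterial groups and reading frames were examined after the data were seen. Alternatives were E-value limits, BLASTP names, other groupings, 1 transcript per gene and human proteins. Python 3.11.15, numpy 2.4.6, pandas 2.3.3 and scipy 1.17.1 were used.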

Additional observations from a re-analysis of the deposited data

How the results depend on the processing

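The number of LINE-1 transcripts depended on the limit set on the match. In *Erophylla* there were 5266 in 4177 assembled genes at an E-value of 1e-20 or lower, 133 in 92 at 1e-50 or lower, and 760 in 572 when the protein match of a coding region was used. In *Pteronotus* these numbers were 6153 in 5002, 136 in 118, and 854 in 709. Fewer matches pass a stricter limit by construction. Grouping by assembly component, or naming a gene by its lowest E-value, moved the number of assembled genes by less than 1.5 times, but by component the share with another name was 5.08% and 4.07%, a setting added after seeing the data.

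The forward share, 47.0% and 47.3%, became 53.5% and 52.9% at 1e-20 and 65.4% and 66.2% at 1e-50. With 1 transcript per assembled gene it was 46.4% and 46.1%, and in genes of 1 transcript 46.2% and 45.6%. With 1 transcript per assembled gene at 1e-50, a setting chosen after seeing the data, it was 60.9% and 64.4%. The shift at 1e-50 was thus also present with 1 transcript per gene, and its cause was not tested.

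At 1e-20 the median aligned length was 112 and 113 residues and the median identity 54.7% and 54.2%. With 1 transcript per gene the median identity was 49.0% and 48.9%, and for human proteins 50% in both, with a median length of 83 in *Pteronotus*. In *Pteronotus* 0 transcripts covered 90% of the span at 1e-20. The most covered bin of human LORF2 was the same at 1e-20 and with 1 transcript per gene.

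A coding region was found on 10.5% and 9.62% of LINE-1 transcripts at 1e-20, and on 5.50% and 5.21% with 1 transcript per gene. A LINE-1 domain was found on 2.26% and 1.67% at 1e-20 and, in *Erophylla*, on 0.557% with 1 transcript per gene. Assembled genes with another name made up 0.780% at 1e-20 in *Pteronotus*. The causes of these changes were not tested. Of 60 values recomputed, 18 stayed equal, within their interval or within 1.5 times the main count.

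No paired analysis was possible because no result comes from a test or from values per library. Identifiers and protein matches alone were used, so the copy of LINE-1 in the genome from which a transcript came was not analysed here, nor was its level in any tissue or stage. Assembled transcripts are not independent, and 1 copy can give several of them.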
